A study of Mus musculus with 10 samples.

Results

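The 10 genes described here encode nuclear receptors that work as pairs: the retinoid X receptors Rxra and Rxrb and receptors that bind DNA as their partners. The partners were the retinoic acid receptors Rara, Rarb and Rarg, the thyroid hormone receptors Thra and Thrb, the peroxisome proliferator-activated receptors Ppara and Ppard, and the vitamin D receptor Vdr. They were chosen by name, and all 10 were found among the 32903 genes to which the deposited transcripts could be assigned. RNA came from preadipocytes, the precursors of fat cells, of inguinal subcutaneous fat (iSAT) from male wild-type C57 BL6 mice. In 5 libraries the cells had received the vehicle DMSO, and in the other 5 they had received 2.5 µM bisphenol S (BPS), an analogue of bisphenol A, dissolved in DMSO. The title frames the study as one of how bisphenols favour the formation of fat cells. How long the cells were exposed, how many animals they came from and whether replicates were separate cultures are not given in the sources used here, so p-values measure the spread between these libraries, which may be technical.

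A retinoid X receptor pairs with a partner on DNA that holds 2 copies of a 6-base sequence in a row, and the number of bases between the copies favours different partners. Without ligand many of these pairs hold corepressors and keep genes low, and the hormone or lipid that fits the partner exchanges these for coactivators. In fat, the retinoid X receptors are best known as the partners of PPAR gamma in adipocyte formation, while retinoic acid acting through its own receptors can hold precursors back. Rarb is the textbook example of a receptor gene that is itself switched on by retinoic acid.

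Total estimated counts ran from 37920689 to 42717227 per library. The library numbers in the labels ran through all DMSO libraries before the BPS libraries, so a batch that followed this order cannot be told apart from the treatment. The cells carried preadipocyte transcripts: Pdgfra stood at 833.2 to 925.5 CPM (counts scaled for library depth) and Dlk1 at 388.2 to 470.1 CPM. All 12 preadipocyte markers had enough counts to be tested, but some were low. Cd24a ran from 0.304 to 0.704 CPM, Pi16 from 1.765 to 2.509 CPM and Dpp4 from 1.945 to 2.839 CPM. Of 8 adipocyte markers, 5 had at most 3 counts in every library and Lep had 0 in all of them. The macrophage marker Csf1r and the mesothelial markers Msln and Upk3b also had 0 counts in every library. Other members of these 3 lists were present. The adipocyte marker Lipe ran from 3.25 to 4.82 CPM, the macrophage marker Lyz2 from 6.41 to 13.4 CPM and the mesothelial marker Krt19 from 8.21 to 11.9 CPM. The 8 mural cell markers summed to 1067 to 1143 CPM with DMSO and 1378 to 1482 CPM in BPS. Most of this sum was Acta2, at 996 to 1067 CPM with DMSO and 1289 to 1389 CPM in BPS. Of the 8, 3 rose (Acta2, Des and Cspg4), where 3.06% of all genes tested were called higher. Of these 3, Cspg4 held its call in 6 of 21 alternatives. Rgs5, Myh11, Notch3, Kcnj8 and Abcc9 were not called. Summed levels of macrophage markers (11.4 to 18.2 CPM in DMSO, 12.4 to 20.9 CPM in BPS) and endothelial markers (18.5 to 23.7 CPM and 17.8 to 23.5 CPM) overlapped between the groups.

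Among the receptor genes, Rarb alone had an adjusted p under 0.05 by edgeR, close to that threshold. Its start region is therefore shown first. It is the 250 bases before the RefSeq start of Rarb on the minus strand of GRCm38.p6, chr14:16575477-16575726, read 5′ to 3′ in the direction of the gene. Capitals mark 2 variants of the receptor hexamer in the same direction, GGTTCA and AGTTCA, together with the 5 bases between them.
Rarb: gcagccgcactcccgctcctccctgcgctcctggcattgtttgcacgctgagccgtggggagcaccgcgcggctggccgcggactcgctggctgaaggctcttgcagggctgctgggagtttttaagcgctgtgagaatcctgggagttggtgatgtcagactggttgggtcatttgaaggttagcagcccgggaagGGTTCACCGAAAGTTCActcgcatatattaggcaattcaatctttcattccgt

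The search took the hexamer AGGTCA, the variant GGGTCA, the variant AGTTCA and the variant GGTTCA, in any pair and on both strands, with 1, 3, 4 or 5 bases between the copies. These spacings are known as DR1, DR3, DR4 and DR5, for direct repeat, and DR5 is the textbook spacing of retinoic acid receptor pairs. The Rarb repeat lay at -53 to -37 from the start. DR5 was found in 29 of 32851 start regions of this length, or 0.088%. The other spacings were found in 0.164% (DR1), 0.04% (DR3) and 0.067% (DR4) of them. Of the receptor genes, 9 had start regions in the RefSeq table, 16 in all, and Rarb alone held any of the 4 repeats. Rarb is a textbook target of retinoic acid and DR5 a textbook spacing, so this match is a description and not a test. Within the list of 15 retinoic acid receptor targets, 9 genes had start regions, and Cyp26a1, the retinoic acid-degrading enzyme, also held a DR5. The 2 elements are set side by side because both genes are textbook targets of retinoic acid receptors, with the hexamers in capitals and the Cyp26a1 element read on the strand opposite to its gene.
Rarb element: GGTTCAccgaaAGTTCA
Cyp26a1 element: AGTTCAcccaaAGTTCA
A match of letters is a description of the sequence and not of binding, and a receptor site outside these windows would not be seen. Cyp26a1 had at most 1 count in any library, so its level could not be compared.

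Rarb, the retinoic acid receptor beta, was lower under BPS. Its levels in DMSO replicates 1 to 5 were 13.6, 12.5, 14.2, 12.1 and 12.6 CPM. In BPS replicates 1 to 5 they were 10.1, 12.6, 10.5, 9.05 and 9.94 CPM. BPS replicate 2 lay inside the DMSO range, and the other 4 BPS libraries lay below every DMSO library. The means were 12.997 ± 0.872 CPM with DMSO and 10.4 ± 1.30 CPM with BPS (SD, n = 5 each). The DMSO libraries held 452 to 559 Rarb counts and the BPS libraries 321 to 437. The log2 fold change was -0.32 (SE 0.08, 95% interval -0.49 to -0.14), which corresponds to a change of -19.8%. In edgeR's quasi-likelihood fit the adjusted p was 0.0445, after Benjamini-Hochberg adjustment over 14597 genes. Less Rarb RNA per cell and fewer Rarb-expressing cells cannot be told apart in bulk RNA. The summed mural markers given above, mostly Acta2, rose in the same libraries, and their part in this difference was not tested. The call is close to the threshold. With all libraries kept, it was lost when transcripts were matched by exact version (adjusted p 0.0793 by edgeR) or limited to curated ones (0.08745). It was also lost when the replicate number was added to the model (edgeR adjusted p 0.064). When any single library other than BPS replicate 2 was left out, the adjusted p by edgeR lay between 0.0546 and 0.101. Without BPS replicate 2 it was 0.00795, at a log2 fold change of -0.39.

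**Figure D1:**
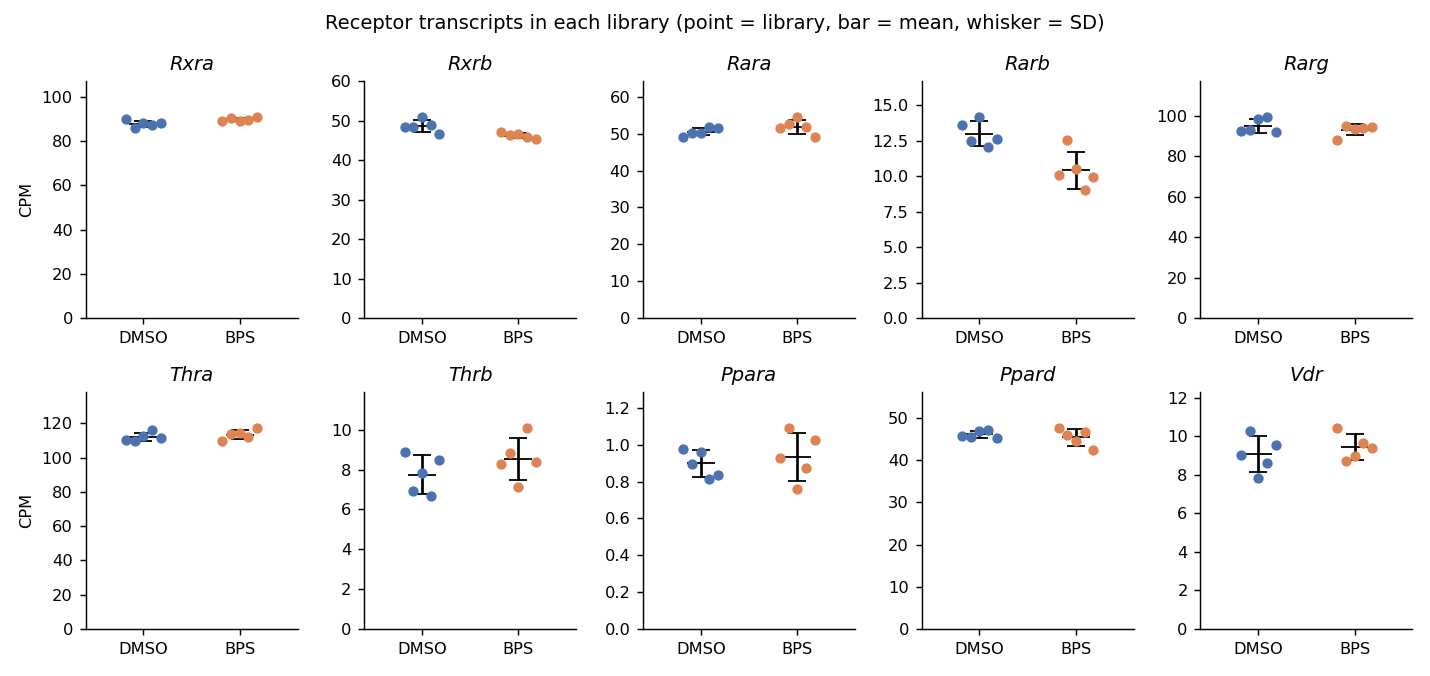
Level of each receptor gene in CPM (vertical axes, each starting at 0) in the 5 DMSO and 5 BPS libraries, with a point per library, the mean as a bar and the SD as whiskers. Rarb averages 12.997 CPM with DMSO and 10.4 CPM with BPS, BPS replicate 2 lies inside the DMSO range, and the groups overlap for all 10 genes.

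Of the 10 receptor genes, 1 fell and 0 rose by edgeR's quasi-likelihood test with an adjusted p under 0.05. Among all 14597 genes tested, 4.88% were called, 1.82% as lower and 3.06% as higher, and 1 of 10 does not set the receptors apart from this background. At an unadjusted p under 0.05, 2 receptor genes were lower and 0 higher, where 18.8% of all genes passed in either direction. The DESeq2 Wald test and limma-voom each called 1 receptor gene lower and 0 higher. In none of the 10 did the 5 BPS values stand wholly apart from the 5 DMSO values, against 6.9% of all genes. The median log2 fold change was 0.02 over the receptor genes and 0.00 (0.0004) over all genes, and the median absolute change was 0.05 and 0.06.

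**Figure D2:**
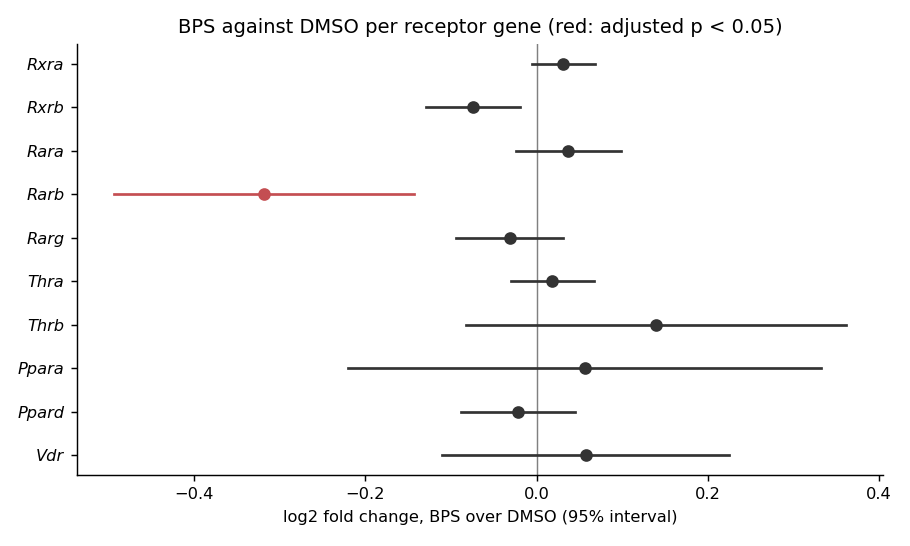
Log2 fold change of each receptor gene, BPS over DMSO (horizontal axis), as a point with its 95% interval. Rarb, in red, is the gene with an adjusted p under 0.05, at -0.32. The intervals of Thrb, Ppara and Vdr are the widest of the other 9.

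Neither of the retinoid X receptors, the common partners, passed the test. Rxra, the retinoid X receptor alpha, stood at 89.9, 86.1, 88.1, 87.2 and 88.1 CPM in DMSO replicates 1 to 5 and at 88.9, 90.4, 89.1, 89.6 and 90.8 CPM in BPS replicates 1 to 5. Its log2 fold change was 0.03 (95% interval -0.01 to 0.07, edgeR adjusted p = 0.364). The interval is for the difference between the groups and takes in only variation between libraries, under this assignment of transcripts. With curated transcripts only, which leaves out most Rxra counts, the log2 fold change was 0.26 (SE 0.20), also not called. Rxrb, the retinoid X receptor beta, stood at 48.5, 48.5, 50.9, 49.0 and 46.6 CPM with DMSO and at 47.1, 46.5, 46.6, 45.8 and 45.3 CPM in BPS. Only DMSO replicate 5 reached down into the BPS range. The log2 fold change of Rxrb was -0.07 (SE 0.03, 95% interval -0.13 to -0.02), which did not pass (edgeR adjusted p = 0.126). Rxrg, the gamma form, had 0 to 3 counts per library, so these cells gave next to no reads for it.

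The other retinoic acid receptors did not pass the test. Rara, the alpha form, stood at 49.2, 50.1, 50.2, 51.8 and 51.5 CPM in DMSO replicates 1 to 5, and at 51.5, 52.6, 54.4, 51.7 and 49.1 CPM under BPS, with the lowest and highest values both under BPS. Rara averaged 50.6 ± 1.07 CPM with DMSO and 51.9 ± 1.92 CPM with BPS (SD, n = 5 each), which gave a log2 fold change of 0.04 (95% interval -0.02 to 0.10, edgeR adjusted p = 0.541). Rarg, the gamma form, stood at 92.4, 93.1, 98.5, 99.4 and 92.3 CPM in DMSO replicates 1 to 5, and at 88.4, 94.9, 93.3, 94.2 and 94.7 CPM under BPS. Its DMSO replicates 3 and 4 were above every BPS library and its BPS replicate 1 below every DMSO library. Rarg averaged 95.1 ± 3.51 and 93.1 ± 2.71 CPM, a log2 fold change of -0.03 (95% interval -0.09 to 0.03, edgeR adjusted p = 0.624). With curated transcripts only its sign turned (0.0119, not called). The intervals of both lie above the point estimate of Rarb, although the difference between the receptors was not tested. Per length, Rarb was the scarcest of the retinoic acid receptor genes.

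The thyroid hormone receptors were unequal in depth. Thra, the alpha form, ran from 109.8 to 116.4 CPM in the DMSO libraries and from 109.6 to 117.4 CPM under BPS. Thra averaged 112.1 ± 2.61 CPM with DMSO and 113.5 ± 2.85 CPM with BPS (SD, n = 5 each), with a log2 fold change of 0.02 (95% interval -0.03 to 0.07, edgeR adjusted p = 0.735). Thrb, the beta form, stood at 8.87, 6.93, 7.81, 6.66 and 8.49 CPM in DMSO replicates 1 to 5, and at 8.30, 8.82, 7.12, 10.1 and 8.36 CPM under BPS. BPS replicate 4 was the highest and DMSO replicate 4 the lowest, and the other libraries mixed. Thrb, on 253 to 358 counts per library, averaged 7.75 ± 0.957 and 8.54 ± 1.07 CPM. Its log2 fold change was 0.14 (95% interval -0.08 to 0.36, edgeR adjusted p = 0.52). The sign turned with exact version matching (-0.38, SE 1.26) and with curated transcripts only (-0.39, SE 1.28), neither called. For Thra the interval leaves room for little change, and for Thrb it leaves room for a change as large as that of Rarb in the upward direction.

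The lipid sensors and the vitamin D receptor gave no call. Ppard, the form of PPAR found in most tissues, ran from 45.4 to 47.0 CPM in the DMSO libraries and from 42.5 to 47.6 CPM under BPS. Ppard averaged 46.1 ± 0.794 CPM with DMSO and 45.4 ± 2.02 CPM with BPS (SD, n = 5 each), with a log2 fold change of -0.02 (95% interval -0.09 to 0.05, edgeR adjusted p = 0.774). Ppara, the form that drives fatty acid oxidation in liver, was near the lower limit of what could be tested, at 28 to 38 counts per library. Its levels ran from 0.816 to 0.979 CPM in the DMSO libraries and from 0.758 to 1.09 CPM under BPS. Ppara averaged 0.898 ± 0.0729 and 0.935 ± 0.130 CPM, and its log2 interval, -0.22 to 0.33, allows a change in either direction (edgeR adjusted p = 0.899). With exact version matching and with curated transcripts only, the log2 fold change of Ppara was 2.21 (SE 1.30 and 1.34), not called, so its size depends on which transcripts are summed. Vdr stood at 9.03, 10.3, 7.81, 8.63 and 9.55 CPM in DMSO replicates 1 to 5, and at 10.4, 8.70, 8.97, 9.64 and 9.38 CPM under BPS, with the BPS values mostly inside the DMSO range. Vdr averaged 9.06 ± 0.933 and 9.42 ± 0.670 CPM, with a log2 fold change of 0.06 (95% interval -0.11 to 0.23, edgeR adjusted p = 0.759).

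Levels can be ranked between genes only per length. Here CPM was divided by the length of the longest GENCODE M21 transcript linked to a curated RefSeq transcript of the gene. In DMSO the order on this scale was Thra (45.7 ± 1.06 CPM per kb, SD, n = 5), Rarg (32.2 ± 1.19), Rxrb (18.5 ± 0.584), Rxra (17.9 ± 0.282), Rara (14.9 ± 0.315), Ppard (14.1 ± 0.242), Rarb (4.18 ± 0.281), Vdr (2.07 ± 0.214), Thrb (1.25 ± 0.154) and Ppara (0.263 ± 0.0214). Neighbours in this order had ranges that did not overlap, except Rxrb and Rxra. In BPS those 2 changed places and the other 8 held theirs. The order is limited by these lengths, since predicted transcripts of unknown length held 93.6% of the Rxra counts, 66.7% of the Thrb counts and 63.15% of the Ppara counts. The choice of length mattered most for Rxra, whose linked transcripts run from 1952 to 4905 bases. By the shortest linked transcript its mean was 45.0 CPM per kb, which placed it after Thra.

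**Figure D3:**
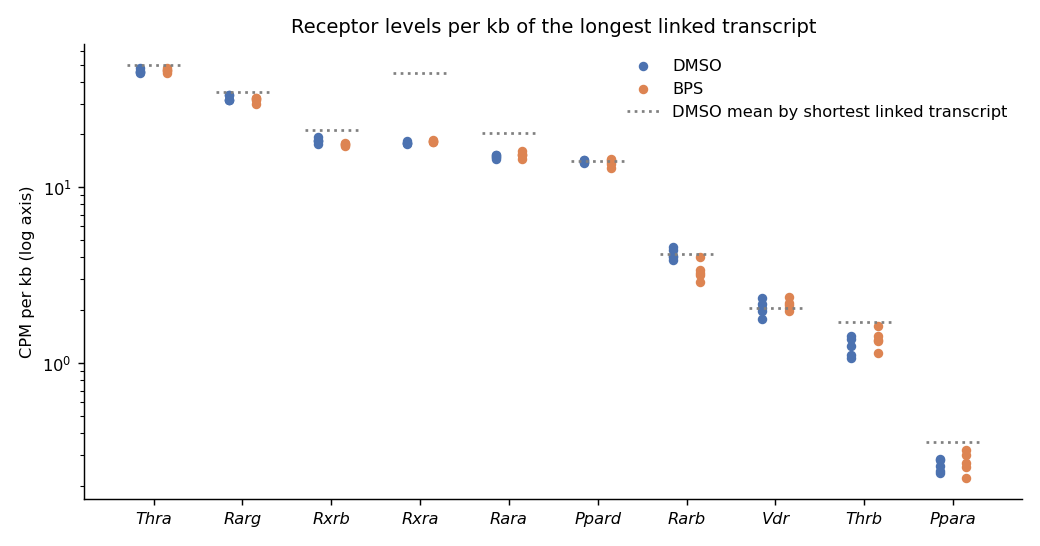
Level of each receptor gene in CPM per kb of its longest linked transcript (log axis), with a point per library, and the DMSO mean by the shortest linked transcript as a dotted line. Thra and Rarg lead, and Ppara is lowest at 0.263 CPM per kb in DMSO. The dotted line lies far from the points for Rxra.

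Receptor genes make several proteins through different starts and splicing, and the files give estimated counts per transcript. Of 55 transcripts of the 10 genes, 24 could be tested. By edgeR's quasi-likelihood test 0 of these 24 were called, 0 were higher and 1 was lower at an unadjusted p under 0.05, and the DESeq2 Wald test called 0. The background by edgeR was low as well, with 126 of 37588 transcripts called, or 0.335%. Over all transcripts the DESeq2 Wald test called 803. The call for Rarb was made on the sum over its transcripts. The main Rarb transcript, NM_011243, which encodes 448 residues, held 90.7% of the counts and had a log2 fold change of -0.25 (SE 0.11, edgeR adjusted p = 0.732). The second, NM_001289762, with the same protein length, varied from 0 to 102.4 estimated counts in DMSO and from 0 to 51.4 in BPS. The 1 transcript with a low unadjusted p was a predicted Rarg model, XM_006520650, at 19.9 ± 1.63% of the gene's counts in DMSO and 15.6 ± 2.83% in BPS (SD, n = 5 each). Its log2 fold change was -0.38 (SE 0.12), which did not pass (edgeR adjusted p = 0.474).

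Thra makes a receptor that binds thyroid hormone and, by another last exon, a longer protein that does not. The longer form, NM_001313983 with 492 residues, held 79.3 ± 1.85% of the Thra counts in DMSO and 79.25 ± 1.58% in BPS (SD, n = 5 each). The hormone-binding form, NM_178060 with 410 residues, held 20.7 ± 1.85% and 20.75 ± 1.58%. Their log2 fold changes were 0.02 (95% interval -0.06 to 0.10) and 0.02 (95% interval -0.12 to 0.16), so the proportion moved by less than the spread between libraries. In GENCODE M21 the longer form shares 263 bases, 10.7% of its length, with exons of Nr1d1 on the opposite strand, and the shorter form shares 0. The library kit is directional, but whether counting used strand is not given in the sources used here, so reads of the 2 genes may be mixed there. Nr1d1 averaged 64.1 CPM with DMSO and 64.4 CPM with BPS.

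In the remaining genes no transcript was called. Rara counts were mainly split between NM_001176528 (459 residues, 43.6 ± 3.17% in DMSO and 45.1 ± 3.78% in BPS) and NM_009024 (462 residues, 39.1 ± 5.82% and 38.8 ± 1.97%; SD, n = 5 each). These proteins differ in the amino-terminal part that comes from separate starts. The leading Rarg transcript, NM_001042727 with 447 residues, held 53.8 ± 1.73% in DMSO and 53.4 ± 3.44% in BPS, and NM_011244 with 458 residues held 20.2 ± 2.54% and 23.3 ± 3.27%. Rxrb was spread over 4 transcripts, the largest at 34.6% of all counts. Of the Rxra counts, 93.6% sat on a predicted model, XM_006497805, and 5.995% on the curated transcript of 467 residues. Thrb had 18 transcripts in the table and unstable shares. Its curated transcript of 461 residues held 0.0245% of the counts in the lowest DMSO library and 71.7% in the highest, so these estimates do not settle which Thrb form was present.

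**Figure D4:**
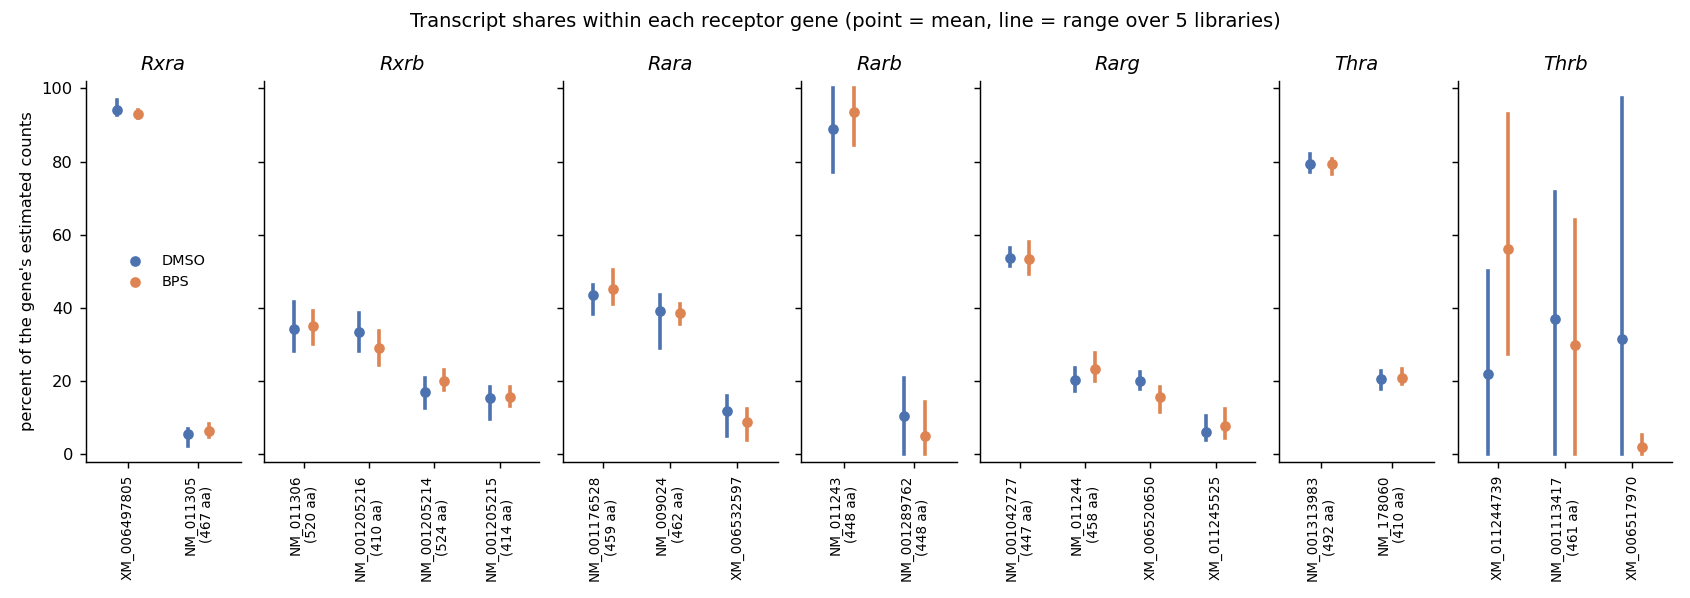
Share of each gene's estimated counts held by its transcripts with at least 5% (vertical axis, percent), with the mean as a point and the range over 5 libraries as a line, for 7 receptor genes. RefSeq names and protein lengths are below. The Thra shares, near 79.3% and 20.7%, are tight, and those of Thrb span most of the axis.

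Genes that supply and sense retinoic acid were taken from 2 lists. Of 17 genes for retinoid uptake, binding and metabolism, 13 were tested by edgeR, and 2 rose and 1 fell. Among all genes tested, 3.06% were called higher and 1.82% lower. At an unadjusted p under 0.05, 6 of the 13 were higher and 3 lower, where 18.8% of all genes passed. The DESeq2 Wald test called 3 higher, with Crabp1 added, and 1 lower, and limma-voom called 2 and 1. Aldh1a1, which makes retinoic acid from retinaldehyde, stood at 18.1, 19.3, 20.1, 17.8 and 17.3 CPM in DMSO replicates 1 to 5 and at 21.9, 23.3, 24.2, 22.5 and 25.5 CPM in BPS. The groups did not overlap, and the log2 fold change of Aldh1a1 was 0.34 (SE 0.05, edgeR adjusted p = 0.00342). Aldh1a2, an enzyme of the same step, stood at 56.2, 57.9, 63.6, 60.1 and 54.0 CPM with DMSO and at 61.5, 66.3, 68.8, 66.0 and 67.0 CPM in BPS. Its groups overlapped in DMSO replicate 3 and BPS replicate 1, and the log2 fold change was 0.17 (SE 0.04, edgeR adjusted p = 0.0413). Dhrs3, which turns retinaldehyde back into retinol and is itself induced by retinoic acid, stood at 64.4, 71.8, 80.3, 68.0 and 61.6 CPM with DMSO and at 41.4, 53.3, 58.0, 52.0 and 58.2 CPM in BPS. All BPS values of Dhrs3 lay below all DMSO values, with a log2 fold change of -0.40 (SE 0.09, edgeR adjusted p = 0.0315). The summed mural markers, mostly Acta2, rose in the same BPS libraries, and their part in these differences was not tested. Aldh1a1 held its call in all 20 alternatives in which it was tested, Dhrs3 in 13 of 20 and Aldh1a2 in 11 of 21. Dhrs3 lost it with robust estimation, with curated transcripts only, and without DMSO replicate 2, 3 or 4 or BPS replicate 2 or 4, with adjusted p by edgeR up to 0.0736 (without DMSO replicate 2). Aldh1a2 lost it with exact version matching, with curated transcripts only, and without any single library except DMSO replicate 3 and BPS replicate 1, with adjusted p up to 0.0949.

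Of 15 retinoic acid receptor targets, 11 were tested by edgeR, and 2 fell (Rarb and Dhrs3) and 0 rose. Among all genes, 1.82% were called lower and 3.06% higher. At an unadjusted p under 0.05, 3 were higher and 2 lower, where 18.8% of all genes passed in either direction. The DESeq2 Wald test and limma-voom each called 2 lower and 0 higher. The median log2 fold change of the list was 0.07, above 0, with 7 of 11 estimates higher, so the 2 falls do not speak for the list. The 3 higher at the unadjusted threshold were Rarres2 (log2 fold change 0.15, edgeR adjusted p = 0.0862), Stra6, the retinol uptake receptor (0.34, edgeR adjusted p = 0.0976), and Crabp2, a retinoic acid carrier (0.24, edgeR adjusted p = 0.166), named after their values were seen.

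**Figure D5:**
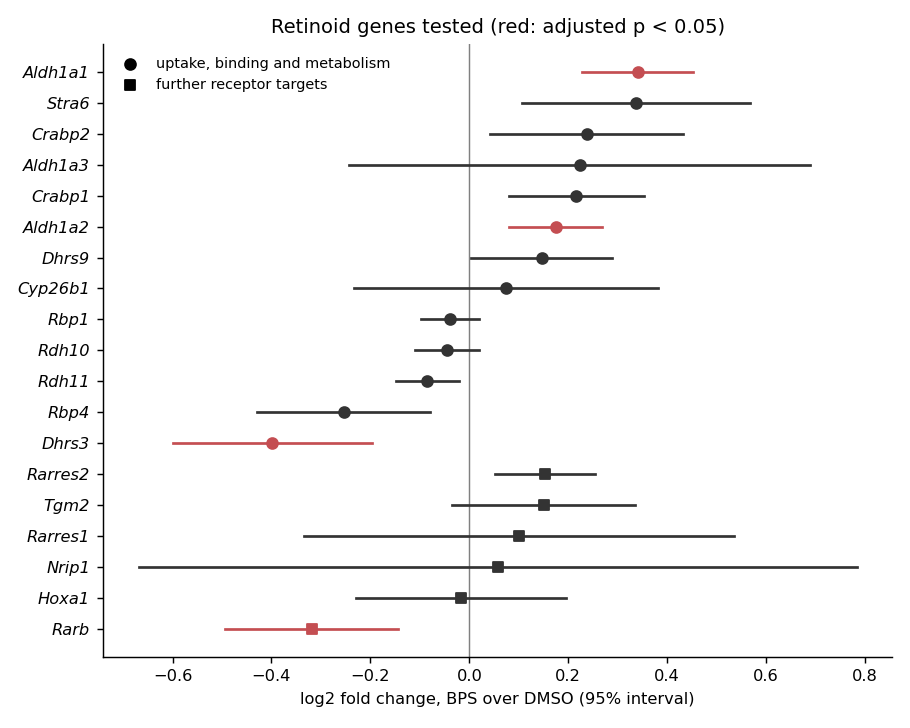
Log2 fold change with 95% interval (horizontal axis) of the retinoid genes tested, circles for uptake, binding and metabolism and squares for further receptor targets. In red are the genes with an adjusted p under 0.05, Aldh1a1 (0.34) and Aldh1a2 (0.17) above 0 and Dhrs3 (-0.40) and Rarb (-0.32) below.

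Other receptors that can pair with RXR formed a list of 9. Of these 5 were tested and 1 rose, where 3.06% of all genes were called higher. This was Nr4a1, an immediate early gene, at 10.5, 10.97, 9.91, 10.5 and 10.8 CPM in DMSO replicates 1 to 5 and 14.5, 15.3, 13.4, 14.1 and 12.8 CPM in BPS. Its groups did not overlap, and the log2 fold change was 0.41 (SE 0.05, edgeR adjusted p = 0.00119). When predicted transcripts were left out, Nr4a1 lost its call (0.18, edgeR adjusted p = 0.754).

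Of 12 genes for thyroid hormone supply and response, 8 were tested and 2 fell, where 1.82% of all genes were called lower. Klf9, a transcription factor induced by thyroid hormone and glucocorticoids, averaged 42.6 ± 0.753 CPM with DMSO and 39.9 ± 0.436 CPM with BPS (SD, n = 5 each), which gave a log2 fold change of -0.09 (SE 0.02, edgeR adjusted p = 0.0253). Bcl3, a coregulator in NF-kB signalling, averaged 25.5 ± 1.17 and 21.8 ± 0.405 CPM, a log2 fold change of -0.23 (SE 0.03, edgeR adjusted p = 0.00337). Both are under more controls than thyroid hormone. Klf9 lost its call with the replicate block, without a filter on low counts, and without DMSO replicate 2 or 4 or BPS replicate 3 or 4, while Bcl3 held its call in all 21 alternatives.

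Targets of the PPAR alpha and delta receptors, mostly enzymes of fatty acid oxidation, gave 0 calls among 20 tested of 24 by edgeR. Among all genes tested, edgeR called 4.88% in either direction, so 0 of 20 does not set this list apart. At an unadjusted p under 0.05, 3 were higher and 3 lower, where 18.8% of all genes passed in either direction. The DESeq2 Wald test called 1 higher, Acot2, and limma-voom 0. Of the 20 estimates 6 were above 0 and 14 below, with a median log2 fold change of -0.03. Over all 14597 genes 7267 estimates were below 0. The smallest p belonged to Acot2 and Acot1, which cut fatty acyl-CoA, with log2 fold changes of 0.15 (edgeR adjusted p = 0.0869) and 0.24 (edgeR adjusted p = 0.129). In the list for vitamin D supply and response 6 of 12 genes were tested, with 0 calls by edgeR, against 4.88% of all genes. There were 0 at an unadjusted p under 0.05, against 18.8% of all genes, and 0 by the DESeq2 Wald test and limma-voom. Lrp2 and Cubn, uptake receptors for the vitamin D carrier, had the smallest p there (adjusted p = 0.295 and 0.469 by edgeR). Cyp24a1, the classic vitamin D target, had 0 to 1 counts per library.

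All 19 corepressors and coactivators were tested, with 0 calls by edgeR and 0 by the DESeq2 Wald test and limma-voom. Among all genes tested, edgeR called 4.88% in either direction, so 0 of 19 does not set this list apart. At an unadjusted p under 0.05, 2 were higher and 4 lower, where 18.8% of all genes passed in either direction. Of the 19 estimates 14 were below 0, with a median log2 fold change of -0.05. Over all 14597 genes 7267 estimates were below 0, with a median of 0.0004. The smallest p belonged to the coactivator Pprc1 (0.07, edgeR adjusted p = 0.0694) and to Hdac3, the deacetylase of the corepressor complex (-0.06, edgeR adjusted p = 0.0695).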

How the data were processed

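RNA sequencing libraries of 10 samples, 5 DMSO and 5 BPS, were grouped by their titles. The authors deposited estimated counts per RefSeq transcript, made with kallisto 0.42.4 per the submitters' processing notes. These are not scaled to depth. The index, build and strand setting are not given in the sources used here. Kallisto divides reads among similar transcripts, so gene sums are firmer than single transcripts.

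Accessions were matched without version to RefSeq genes of GRCm38.p6, used for names only. This assigned 86722 of 107384 transcripts and 93.1% of counts, and the rest stayed out. Sums per gene were rounded, filtered with filterByExpr (14597 genes) and scaled by TMM. The treatment was the sole term of the model, tested with glmQLFTest of edgeR (quasi-likelihood). P-values were adjusted by Benjamini-Hochberg across every tested gene, with a threshold of 0.05. CPM uses TMM-scaled library sizes. An interval is the log2 fold change ± its SE times the t quantile for 95%. The SE is the unshrunken change over the square root of F. Transcripts were tested likewise. Total estimated counts were 37920689 to 42717227, and 0 columns lacked a sample.

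The members and lists (partner receptors, retinoid metabolism, retinoic acid receptor targets, thyroid hormone, vitamin D, PPAR targets, coregulators, and markers of preadipocytes, adipocytes, macrophages, endothelium, mural cells and mesothelium) were chosen with earlier results of these data known. Named genes were all members, and in each list the called genes or otherwise the 2 with the smallest p. Rarres2, Stra6, Crabp1, Crabp2, Rxrg, Cyp26a1, Cyp24a1, Nr1d1 and markers without a call fall outside this rule and were named after their values were seen. Start regions came from RefSeq. Tested on simulated counts of 14597 genes, the code recovered 54.5%, 80.6% and 84.8% of seeded log2 changes of 0.3, 0.6 and 1, and 3.9% of calls were not seeded. Alternatives were limma-voom, the Wald test of DESeq2, robust estimation, scaling by upper quartile, by library size alone or by DESeq2 size factors, a CPM filter, no filter, a replicate block, exact version matching, curated transcripts only, and leaving out each library. Software was Python 3.11.15 with pandas 2.3.3, and DESeq2 1.42.0, edgeR 4.0.16 and limma 3.58.1 under R 4.3.3.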

Additional observations from a re-analysis of the deposited data

Results flagged for a closer look

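Each receptor gene was examined in both groups, 20 groups of 5 libraries in all, for a highest or lowest library far from its neighbours (Dixon's test, 95% critical value), which chance passes in about 1 of 20 groups. This happened in 1 group. Rarg stood at 88.37 CPM in BPS replicate 1 and at 93.3 to 94.9 CPM in the other 4 BPS libraries. Rarg was not called with or without this library.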

How the results depend on the processing

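Each receptor gene was refitted under 21 alternatives, 11 with all libraries and 10 that each left out 1 library. Rarb stayed lower in all 21, with log2 fold changes from -0.39 to -0.27, and kept its call in 9, with adjusted p of 0.00795 to 0.101. The count of receptor genes called went from 1 to 0 with the replicate block (Rarb adjusted p = 0.064 by edgeR), exact version matching (0.0793) and curated transcripts only (0.08745), and was 0 to 1 on leaving out each library. The same 4 Rarb transcripts entered those 2 matching alternatives, and the unadjusted p was 0.00336 and 0.00332 in place of 0.00194. The other 9 genes were called in 0 of 188 fits by their respective tools. Among them 5 fits had the opposite sign: Thrb with exact matching (-0.38) and curated transcripts only (-0.39), Rarg with curated transcripts only (0.0119), Ppara without BPS replicate 2 (-0.0042) and Ppard without BPS replicate 5 (0.0013). The log2 fold change of Ppara was 2.2058 with exact matching and 2.2086 with curated transcripts only, and that of Rxra 0.2634 with the latter, none called. On leaving out each library Ppara ranged from -0.0042 to 0.1226 and Ppard from -0.0399 to 0.0013. Ppara could not be tested with the CPM filter. Over all genes, 712 calls became 374 with the replicate block, 328 with exact matching and 311 with curated transcripts, and 449 to 774 on leaving out each library. Over transcripts, 126 calls became 79 without a filter, 803 with the DESeq2 Wald test, 3 with the replicate block and 60 to 108 on leaving out each library, and 0 receptor transcripts were called in any of these. Of the 712 calls 447 were higher, and with scaling by library size alone 45.9% of calls were. Deviations of libraries with the same replicate number correlated at 0.1, 0.004, -0.067, 0.072 and -0.078. DMSO replicates 1 and 4 correlated best with the BPS library of their own number, and replicates 2, 3 and 5 did not. These values do not settle whether the numbers mark a pairing. Depth limited Ppara, at 28 to 38 counts per library, and the transcripts of Thrb.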

Other observations

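Among 12461 genes with a mean of at least 1 CPM, the 3 whose centred log2 CPM profile over the 10 libraries lay nearest to that of Rarb were Ier3, Gda and Ddit4. Their root-mean-square differences from the Rarb profile were 0.0811, 0.0900 and 0.0901 log2 units, where the Rarb profile itself had a root-mean-square size of 0.204. All 3 were lower under BPS, with log2 fold changes of -0.34, -0.36 and -0.26 (adjusted p = 0.00406, 0.000534 and 0.00607 by edgeR). Nearness of profile was the only ground for naming them, and it includes the difference between the groups.

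Among all genes tested by edgeR, 3.06% were called higher. Of the preadipocyte markers, 2 of 12 rose in the edgeR test, Cd34 (log2 fold change 0.28, adjusted p = 0.000428) and Thy1 (0.19, adjusted p = 0.00129). Of the 12 estimates 5 were below 0, and Pdgfra (-0.07, adjusted p = 0.0777 by edgeR) was called lower by the DESeq2 Wald test. Of the mural markers, Acta2 (0.37), Des (0.66) and Cspg4 (0.16) rose, and all 8 estimates were above 0. Cspg4 held its call in 6 of 21 alternatives, and Acta2 and Des in all 21. Of 2 mesothelial markers tested, Krt19 rose (0.27, adjusted p = 0.0367 by edgeR) and held its call in 11 of 21 alternatives, while Wt1 had a log2 fold change of -0.59 (adjusted p = 0.155 by edgeR). Among the 6 macrophage, 8 endothelial and 2 adipocyte markers tested, edgeR called 0, against 4.88% of all genes in either direction. There were 0 at an unadjusted p under 0.05, against 18.8% of all genes, and 0 by the DESeq2 Wald test and limma-voom.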
